A study of Mus musculus with 6 samples.

Results

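H-151, a small molecule that blocks the innate immune adaptor STING, was tested in cultured mouse dermal fibroblasts that had lost the transcription coactivators YAP and TAZ. The libraries compared are the 2 labelled as knockout with H-151 and the 2 labelled as knockout alone, 4 of the 6 libraries in the series, chosen by their labels. Of 13706 genes listed, 13648 were tested and 58 were too low. The knockout cells (KO) carried floxed Yap1 (Yap1 fl/fl) and floxed Wwtr1 (Wwtr1 fl/fl), the gene for TAZ, with R26-CAG-CreER, a Cre recombinase that tamoxifen switches on, expressed from the ROSA26 locus in principle in every cell type of the culture. The KO + H-151 cells had the same alleles and received 1 µM H-151, and the 2 control libraries came from cells with the same floxed alleles and no Cre. All 3 groups, control included, were kept for 72 hr with 1 µM 4OH-tamoxifen. No vehicle is named for the KO libraries, no control cells were given H-151, and the labels do not say whether 2 replicates are separate cultures or separate animals. The p-values therefore reflect the spread between the libraries at hand, which may be technical. The question the comparison addresses is which transcripts of YAP/TAZ-deficient fibroblasts differ when H-151 is given. Whether a difference runs through STING or through another effect of the drug or its solvent was not tested. The interferon genes are kept brief here in favour of everything else that moved.

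DNA in the cytosol is sensed by the enzyme cGAS, which makes a cyclic dinucleotide that binds STING on the endoplasmic reticulum. Activated STING moves to the Golgi, is palmitoylated on cysteines and recruits the kinase TBK1, which phosphorylates IRF3; NF-kB is switched on as well. IRF3 induces interferon beta, and secreted interferon then raises a large set of antiviral genes through STAT factors. H-151 binds a cysteine of STING covalently and prevents its palmitoylation. Dermal fibroblasts are the cells that make the collagen and elastic fibres of the skin, and some of their precursors can become adipocytes.

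Each library was made from 3' ends of mRNA and held 12444986 to 15308100 reads in the listed genes. Values are scaled CPM, read counts scaled by an effective library size. Every log2 change below is on the log2(scaled CPM + 1) scale, as KO + H-151 minus KO with its standard error, over 2 libraries in each group; this scale understates the change of low genes. Wwtr1 stood at 4.79 and 5.03 scaled CPM in KO and 3.07 and 4.00 in KO + H-151 against 213 and 218 in control, and Yap1 at 66.4 and 68.3, 45.3 and 42.4 and 122 and 128. Both genes were thus lower in all 4 libraries with Cre than in both control libraries; whether the 3' reads of either gene come from the deleted part is not given in the sources used here. Between KO and KO + H-151, Yap1 fell further, with a log2 change of -0.61 ± 0.08 (adjusted p = 8.35e-06), and the small difference of Wwtr1, -0.39 ± 0.13, did not hold when single libraries were left out. For Wwtr1 the adjusted p was 0.0693 without KO replicate 1, 0.112 without KO replicate 2, 0.169 without KO + H-151 replicate 1. The replicates of a group correlated with Spearman rho of 0.996 in KO and 0.994 in KO + H-151. Defining fibroblast genes such as Col1a2 and Dcn were high in all libraries, which matches the labelled cell type. Other scalings shifted the median change of all genes, which was 0.015 as deposited, to 0.10 with quantile normalization and to 0.18 with total-count scaling.

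KO + H-151 cells differed from KO cells in a large part of the transcriptome. Of the 13648 genes tested, 2643 (19.4%) were higher and 2923 (21.4%) lower in KO + H-151 than in KO, 40.8% in all (limma, Benjamini-Hochberg adjusted p under 0.05). Of these calls 47.5% were rises; the split moved to 61.9% with quantile normalization and 71.2% with total-count scaling. Of 279 interferon-related genes tested, 251 (90%) fell and 7 (2.51%) rose, with a median log2 change of -2.34. Among them Isg15, a ubiquitin-like interferon-induced protein, stood at 1450.1 and 1502 scaled CPM in KO and at 7.51 and 6.07 in KO + H-151, below the 42.2 and 36.2 of control. Ifit1, which binds foreign RNA, stood at 13399 and 13405, at 15.2 and 8.82 and at 75.1 and 97.9 in the same order. Ifnb1, interferon beta itself, had 65 reads over the KO libraries and 0 over the KO + H-151 libraries, at least 29.2-fold lower when the group is given a floor of 3 reads. Sting1 fell from 66.3 and 78.2 to 33.7 and 38.3 scaled CPM and Cgas from 48.6 and 42.7 to 11.3 and 9.26, and the libraries of the groups did not overlap for either gene. Interferon-related genes took 8.28% and 8.32% of all reads in the KO libraries, 1.53% and 1.495% in the KO + H-151 libraries and 1.57% and 1.497% in the control libraries.

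Outside the interferon-related genes, rises and falls were about equally many on the deposited scaling, and the balance depended on the scaling. Of 13369 such genes, 2636 (19.7%) rose and 2672 (20%) fell, 39.7% in all. Rises were 49.66% of these calls, 64.65% with quantile normalization (3537 rises and 1934 falls) and 73.84% with total-count scaling (4758 and 1686). The falls reached further. By at least 2-fold, 653 genes (4.88%) fell and 427 (3.19%) rose. By at least 4-fold, 174 (1.3%) fell and 16 (0.12%) rose, and by at least 8-fold 52 (0.389%) fell and 1, G0s2 (0.00748%), rose. Without regard to the test, the KO and KO + H-151 libraries did not overlap in 35.5% of all genes tested with KO + H-151 higher and in 33.7% with it lower. With 1 KO library left out, where 1 library stands for its group, 1769 to 1801 of these genes rose and 1959 to 1964 fell, against 2224 to 2264 and 2477 to 2497 with 1 KO + H-151 library left out.

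**Figure D1:**
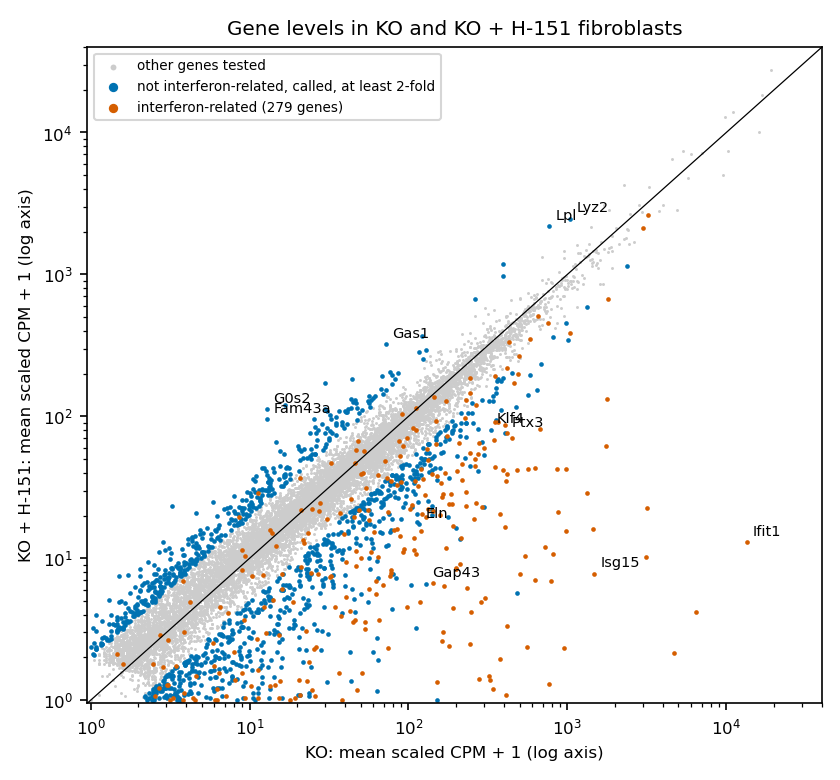
Mean level of each of 13648 genes in KO (x axis) and KO + H-151 (y axis), both in scaled CPM + 1 on log axes, with the line of equal levels. Orange points are the 279 interferon-related genes, most of them far below the line, and blue points are other genes past the threshold with at least a 2-fold change, of which 427 lie above and 653 below the line.

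The 12 largest rises outside the interferon list were of genes with varied roles, led by G0s2. G0s2, an inhibitor of the triglyceride lipase ATGL, stood at 12.1 and 11.7 scaled CPM in KO, 116 and 106 in KO + H-151 and 79.0 and 70.0 in control (log2 change 3.12 ± 0.09, adjusted p = 7.38e-14). Fam43a stood at 10.8 and 12.9 scaled CPM in KO, 99.2 and 89.7 in KO + H-151 and 77.8 and 90.0 in control (log2 change 2.89 ± 0.10, adjusted p = 1.1e-12). Ppp1r3c, a regulatory subunit that directs a phosphatase to glycogen, stood at 1.83 and 2.64 scaled CPM in KO, 22.9 and 21.6 in KO + H-151 and 30.7 and 25.2 in control (log2 change 2.86 ± 0.16, adjusted p = 3.24e-10). For these 3 genes both KO libraries lay below both control libraries, without overlap. They also lay below both KO + H-151 libraries, which the choice of genes required. Gas1, a membrane protein that binds hedgehog ligands and was first found in growth-arrested fibroblasts, stood at 69.7 and 72.4 scaled CPM in KO, 327 and 318 in KO + H-151 and 247 and 273 in control (log2 change 2.17 ± 0.07, adjusted p = 2.22e-13). Zfp703, a zinc finger transcriptional repressor, stood at 46.1 and 40.2 scaled CPM in KO, 184 and 183 in KO + H-151 and 178 and 189.5 in control (log2 change 2.07 ± 0.08, adjusted p = 1.85e-12). Rspo2, a secreted enhancer of Wnt signalling, stood at 13.0 and 14.2 scaled CPM in KO, 65.1 and 65.8 in KO + H-151 and 54.1 and 64.3 in control (log2 change 2.19 ± 0.10, adjusted p = 3.17e-11). In KO + H-151 against control, Zfp703 (adjusted p = 0.999) and Rspo2 (adjusted p = 0.34) did not pass the test, whereas Gas1 was higher than in control by 0.31 ± 0.07 (adjusted p = 0.00365) and G0s2 by 0.57 ± 0.09 (adjusted p = 0.000256). On GRCm38, the build of the mm10 assembly, G0s2 lies at chromosome 1, 193272161 to 193273217, Fam43a at chromosome 16, 30599723 to 30602797, Gas1 at chromosome 13, 60174405 to 60177365 and Zfp703 at chromosome 8, 26977325 to 26981461.

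The other 6 genes of the 12 largest rises varied in level and spread. Car3, a carbonic anhydrase abundant in fat and muscle, stood at 15.8 and 15.8 in KO, 153 and 83.7 in KO + H-151 and 24.9 and 17.9 in control, log2 change 2.77 ± 0.20. Cxcl5, a chemokine for neutrophils, stood at 26.6 and 31.4 in KO, 245 and 99.1 in KO + H-151 and 271 and 202 in control, log2 change 2.39 ± 0.26. In both the KO + H-151 libraries lay above both KO libraries, yet replicate 1 was well above replicate 2. Lyve1, a hyaluronan receptor, stood at 0.435 and 0.596 in KO, 6.99 and 5.94 in KO + H-151 and 3.20 and 1.30 in control, log2 change 2.30 ± 0.25. Stab1, a scavenger receptor, stood at 6.18 and 3.66 in KO, 27.9 and 20.3 in KO + H-151 and 10.9 and 6.92 in control, log2 change 2.10 ± 0.22. Both are known from lymphatic or sinusoidal endothelium and from macrophages. Angpt2, a ligand of the TIE2 receptor, stood at 0.435 and 1.02 in KO, 5.81 and 7.50 in KO + H-151 and 4.42 and 3.75 in control, log2 change 2.16 ± 0.22. Eepd1 stood at 3.74 and 3.49 in KO, 20.97 and 18.5 in KO + H-151 and 9.33 and 8.36 in control, log2 change 2.17 ± 0.15. For all 6 the KO and KO + H-151 libraries were apart, which the choice of genes required (largest limma adjusted p = 1.77e-06, for Lyve1).

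The largest falls outside the interferon list ended near or below the control level. Plscr2, of the phospholipid scramblase family, stood at 112 and 109 scaled CPM in KO, 2.61 and 1.88 in KO + H-151 and 5.98 and 6.85 in control (log2 change -5.12 ± 0.15, adjusted p = 5.49e-14). Acod1, the enzyme that makes itaconate in activated macrophages, stood at 38.7 and 45.8 scaled CPM in KO, 0.719 and 0 in KO + H-151 and 0.0710 and 0 in control (log2 change -5.04 ± 0.24, adjusted p = 4.4e-11). Ccrl2, a surface receptor that binds chemerin, stood at 57.2 and 60.8 scaled CPM in KO, 1.63 and 0.750 in KO + H-151 and 0.427 and 0.937 in control (log2 change -4.80 ± 0.22, adjusted p = 2.22e-11). Calhm6, a channel-family protein of immune cells, stood at 66.3 and 59.2 in KO, 2.16 and 1.31 in KO + H-151 and 1.495 and 1.23 in control, log2 change -4.56 ± 0.19. Acod1 and Calhm6 are known to respond to innate immune signals, so the absence of a gene from the interferon list does not make it unrelated to them. In all 4 genes the KO libraries alone were high. Their positions on GRCm38 are chromosome 9, 92275602 to 92297752 (Plscr2), chromosome 14, 103046977 to 103056573 (Acod1), chromosome 9, 111054486 to 111057519 (Ccrl2) and chromosome 10, 34126067 to 34127984 (Calhm6).

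The other large falls were of genes with varied roles. Gap43, a growth cone protein of regenerating axons, stood at 128 and 129 scaled CPM in KO, 5.29 and 5.94 in KO + H-151 and 27.3 and 26.8 in control (log2 change -4.29 ± 0.10, adjusted p = 5.75e-15). Has2, a hyaluronan synthase, stood at 99.8 and 104 scaled CPM in KO, 5.75 and 5.25 in KO + H-151 and 19.5 and 20.2 in control (log2 change -3.99 ± 0.11, adjusted p = 2.83e-14). Tfap2b, a transcription factor of neural crest derivatives, stood at 74.5 and 81.7 scaled CPM in KO, 3.40 and 3.44 in KO + H-151 and 6.62 and 5.98 in control (log2 change -4.16 ± 0.14, adjusted p = 2.9e-13). Pcdh20, a protocadherin, stood at 29.1 and 30.7 in KO, 0.457 and 0.25 in KO + H-151 and 11.2 and 11.2 in control, log2 change -4.52 ± 0.16. The KO + H-151 libraries of these 4 genes lay below control as well as below KO; against control the changes were -2.09 ± 0.10 for Gap43, -1.68 ± 0.11 for Has2, -0.72 ± 0.14 for Tfap2b and -3.17 ± 0.16 for Pcdh20 (adjusted p = 9.36e-10, 2.02e-08, 0.000958 and 1.9e-09). Hap1, which binds huntingtin, stood at 19.7 and 26.0 in KO, 0.131 and 0.125 in KO + H-151 and 0.142 and 0.288 in control, log2 change -4.39 ± 0.21. Csrnp1, an immediate early nuclear protein, stood at 42.2 and 41.8 in KO, 0.980 and 1.38 in KO + H-151 and 3.28 and 1.80 in control, log2 change -4.31 ± 0.20. Fgf5, a fibroblast growth factor that ends the growth phase of hair follicles, stood at 20.5 and 25.1 in KO, 0.131 and 0 in KO + H-151 and 6.69 and 7.42 in control. It had 530 reads over the KO libraries and 2 over the KO + H-151 libraries, a ratio of 357 between the groups in pooled reads per pooled effective library size (95% interval 98.4 to 2956, counting error only). Tnfsf15, a cytokine of the TNF family, stood at 20.5 and 19.0 in KO, 0.131 and 0.0630 in KO + H-151 and 0.641 and 0.144 in control. It had 458 and 3 reads, a ratio of 206 (interval 70.0 to 1001). Has2 lies at chromosome 15, 56665627 to 56694539, Gap43 at chromosome 16, 42248442 to 42340651 and Fgf5 at chromosome 5, 98254184 to 98277030.

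**Figure D2:**
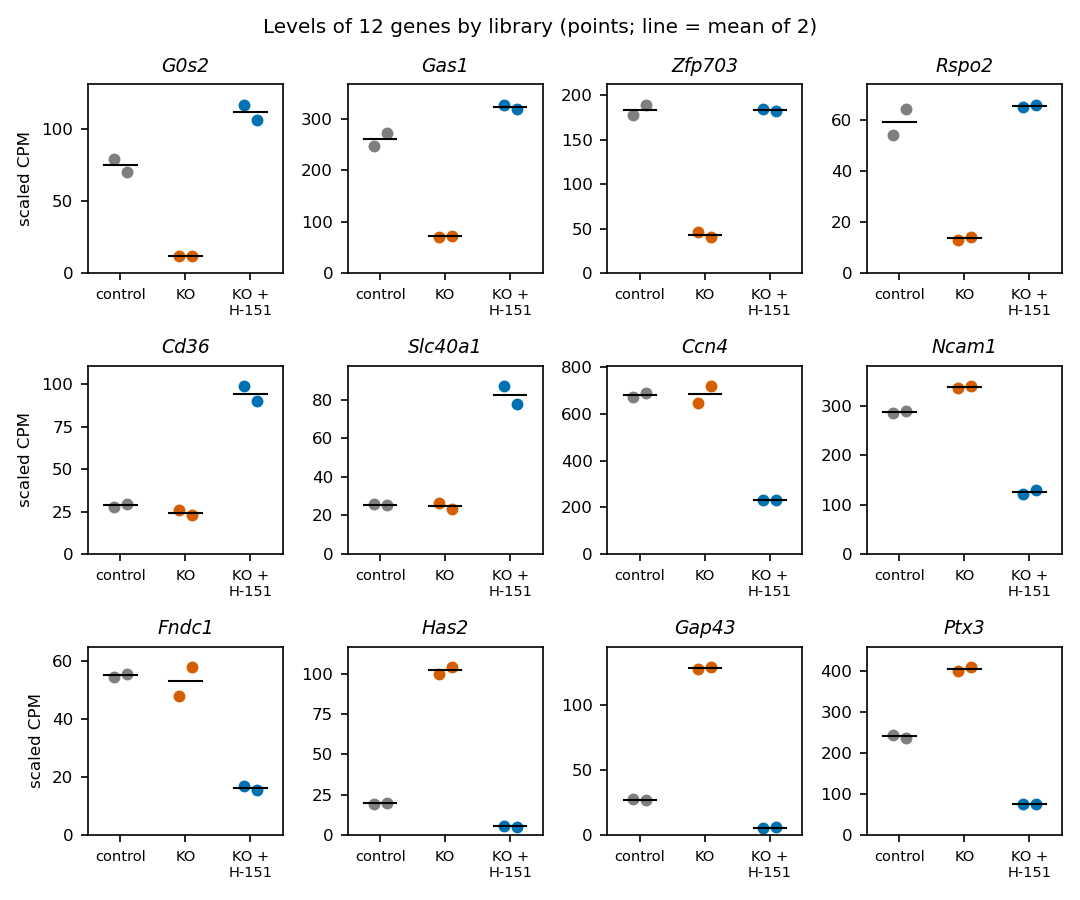
Scaled CPM of 12 genes (y axis, linear from 0) in the 2 control, 2 KO and 2 KO + H-151 libraries (points; the line is the mean of 2). G0s2, Gas1, Zfp703 and Rspo2 are low in the KO libraries alone, Cd36 and Slc40a1 are high and Ccn4, Ncam1 and Fndc1 low in the KO + H-151 libraries alone, and Has2, Gap43 and Ptx3 are high in KO and below control in KO + H-151.

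A set of genes stood at about the same level in control and KO (means within 0.25 on the log2 scale) and moved with H-151. Among the rises, Cd36, a fatty acid transporter and scavenger receptor, stood at 25.8 and 22.9 scaled CPM in KO, 99.2 and 89.9 in KO + H-151 and 27.4 and 29.8 in control (log2 change 1.92 ± 0.10, adjusted p = 1.02e-10). Slc40a1, the iron exporter ferroportin, stood at 26.4 and 23.5 scaled CPM in KO, 87.3 and 77.9 in KO + H-151 and 25.7 and 25.4 in control (log2 change 1.69 ± 0.10, adjusted p = 5.83e-10). Plin1, the coat protein of the fat cell's lipid droplet, stood at 29.1 and 32.9 scaled CPM in KO, 114 and 88.9 in KO + H-151 and 35.0 and 28.1 in control (log2 change 1.67 ± 0.12, adjusted p = 1.09e-08). Both KO + H-151 libraries were above all 4 others in each of these genes, which follows largely from how they were chosen. Fermt3, an integrin activator of blood cells, stood at 7.05 and 6.90 in KO, 27.2 and 25.8 in KO + H-151 and 8.69 and 7.86 in control, log2 change 1.78 ± 0.14. Galnt6 (1.66), Fam13a (1.88) and Adrb3, the beta adrenergic receptor of fat cells (1.64), rose from KO means under 5 scaled CPM. Cd36 lies at chromosome 5, 17781690 to 17888801, and Slc40a1 at chromosome 1, 45908068 to 45926523.

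Falls of this kind that met the rules for naming numbered 869 and rises 848, about equally many. Without the condition on the control level, 2290 falls and 2070 rises met the rules. Only the largest are named here. The named falls were mostly matrix and adhesion genes, and the rest were not sorted by role. Ccn4, a matricellular protein and Wnt target, stood at 647 and 721 scaled CPM in KO, 232 and 232 in KO + H-151 and 675 and 692 in control (log2 change -1.55 ± 0.07, adjusted p = 1.42e-11). Ncam1, the neural cell adhesion molecule, stood at 337 and 341 scaled CPM in KO, 123 and 130.4 in KO + H-151 and 285 and 289 in control (log2 change -1.42 ± 0.06, adjusted p = 2.39e-11). Fndc1, a fibronectin type III domain protein, stood at 48.0 and 58.2 scaled CPM in KO, 17.0 and 15.4 in KO + H-151 and 54.7 and 55.8 in control (log2 change -1.65 ± 0.11, adjusted p = 1.97e-09). Cthrc1, a secreted protein of matrix-producing fibroblasts, stood at 13.1 and 14.6 scaled CPM in KO, 2.29 and 2.63 in KO + H-151 and 14.3 and 13.8 in control (log2 change -2.11 ± 0.16, adjusted p = 1.34e-08). In these 4 genes the 2 KO + H-151 libraries were below all 4 libraries of the other groups, and control and KO lay close together. This pattern follows largely from how the genes were chosen. Col28a1, a collagen chain, fell with a log2 change of -1.40, Aldh1a3, a retinoic acid synthesizing enzyme, with -1.38, Adgrd1, an adhesion receptor, with -1.34, and Map2, a microtubule protein, with -1.43 (largest adjusted p = 6.49e-06, for Map2). Since no control cells received H-151, whether control cells would respond alike was not measured. Ccn4 lies at chromosome 15, 66891320 to 66923201, and Ncam1 at chromosome 9, 49502136 to 49798925.

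Outside the interferon list, the largest changes among genes with a mean of at least 200 scaled CPM were smaller in fold and large in transcripts. Lyz2, lysozyme, known as a macrophage gene, stood at 1042 and 1044 scaled CPM in KO, 2739.97 and 2199 in KO + H-151 and 995 and 841 in control (log2 change 1.23 ± 0.10, adjusted p = 2.78e-08). Lpl, lipoprotein lipase, stood at 729 and 812 scaled CPM in KO, 2403 and 1991 in KO + H-151 and 1036 and 926 in control (log2 change 1.51 ± 0.09, adjusted p = 8.74e-10). Fabp4, a fatty acid binding protein of fat cells and macrophages, stood at 351 and 439 scaled CPM in KO, 1496 and 858 in KO + H-151 and 394 and 278 in control (log2 change 1.53 ± 0.19, adjusted p = 6.4e-06). The KO + H-151 libraries of all 3 genes were above every KO and control library, and replicate 1 was above replicate 2 in each. Sned1, a matrix protein, rose by 1.59 ± 0.07, the transcription factor Maf by 1.35 ± 0.06 and the transcription factor Sox4 by 1.33 ± 0.08, each from a KO level below control. Ptx3, a secreted pattern recognition protein, stood at 400.2 and 410.3 scaled CPM in KO, 74.5 and 76.5 in KO + H-151 and 244 and 237 in control (log2 change -2.41 ± 0.06, adjusted p = 2.09e-14). Nfkbia, the inhibitor of NF-kB that NF-kB itself induces, stood at 656 and 636 scaled CPM in KO, 174 and 129 in KO + H-151 and 170.2 and 151.4 in control (log2 change -2.10 ± 0.10, adjusted p = 7.22e-11). Klf4, a Krüppel-like factor, stood at 324 and 333 scaled CPM in KO, 78.6 and 80.5 in KO + H-151 and 124 and 118 in control (log2 change -2.03 ± 0.07, adjusted p = 3.14e-13). Ptx3 and Klf4 in KO + H-151 were below both control libraries, while Nfkbia differed from control by -0.10 ± 0.10 (adjusted p = 0.571). Apod, a lipid-binding apolipoprotein, stood at 548 and 582 in KO, 148 and 131 in KO + H-151 and 157 and 126 in control, log2 change -2.01 ± 0.09. Tor1aip2 stood at 468 and 474 in KO, 116 and 114 in KO + H-151 and 144 and 148 in control, log2 change -2.03 ± 0.06.

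Gene lists were then read by how many members passed in each direction, beside the 19.4% that rose and 21.4% that fell among all genes tested. Adipocyte genes, macrophage genes, NRF2 antioxidant genes and sterol synthesis genes rose in shares of 88.9%, 88.5%, 73.0% and 68.0%. Ribosomal protein, collagen, NF-kB and secreted inflammatory, and integrated stress response genes fell in shares of 88.0%, 80.6%, 71.9% and 69.2%. The shares that rose of Wnt (20.0%), proteoglycan (21.7%), immediate early (18.5%) and YAP/TAZ target genes (18.5%) were close to that of all genes. The lists were chosen with earlier results of these data known, so their counts are a description.

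**Figure D3:**
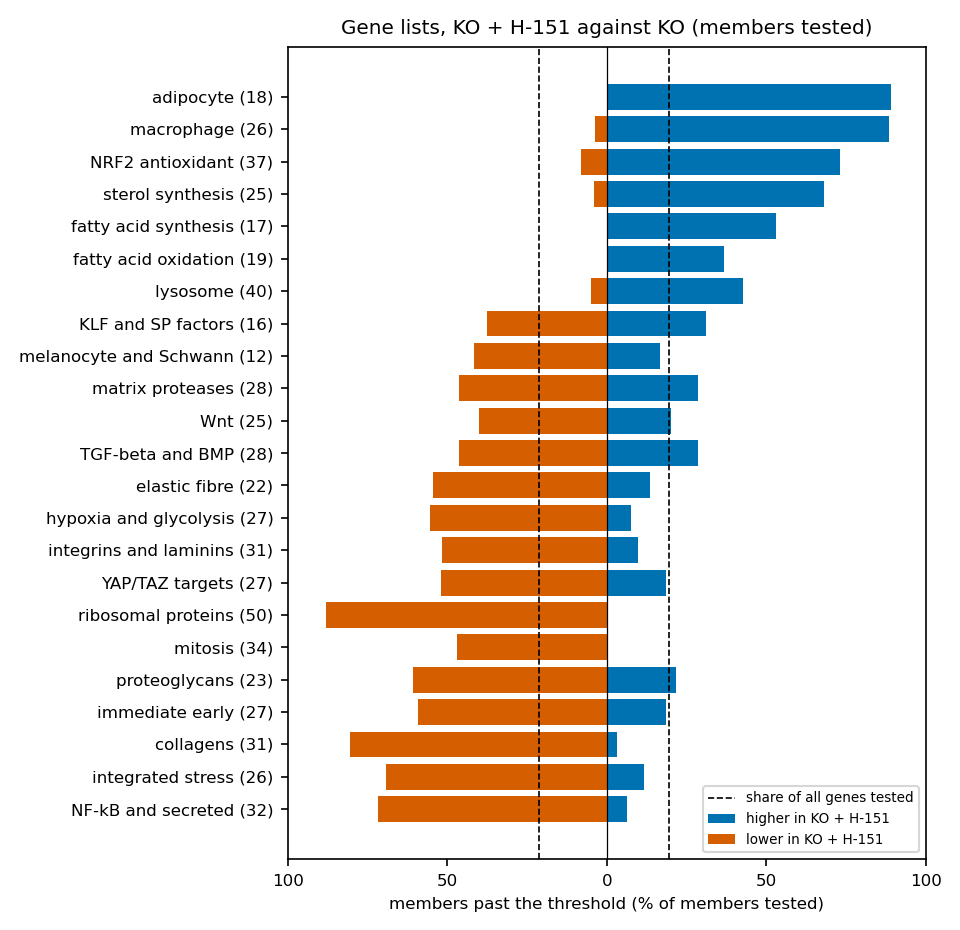
Share of each list's tested members (number in brackets) that passed the threshold as higher (blue, right) or lower (orange, left) in KO + H-151 than in KO, in percent; dashed lines mark the shares among all genes tested, 19.4% and 21.4%. Adipocyte, macrophage and NRF2 lists extend to the right, and ribosomal, collagen, stress and NF-kB lists to the left.

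Of 31 collagen chains and collagen-modifying genes tested, 25 fell and 1 rose, with a median log2 change of -0.50 beside 0.015 for all genes. Col1a2, a chain of the main skin collagen, stood at 16106 and 15874 scaled CPM in KO, 10473 and 9749 in KO + H-151 and 12677 and 13328 in control (log2 change -0.66 ± 0.10, adjusted p = 6.17e-05). Col18a1, a basement membrane collagen, stood at 174 and 185 scaled CPM in KO, 36.0 and 35.8 in KO + H-151 and 61.2 and 66.0 in control (log2 change -2.29 ± 0.08, adjusted p = 4.6e-13). Col11a1, a chain of minor fibrils, stood at 113 and 112 scaled CPM in KO, 42.4 and 44.5 in KO + H-151 and 154 and 168 in control (log2 change -1.35 ± 0.07, adjusted p = 3.13e-10). The KO + H-151 libraries of these 3 genes were below both control libraries as well as both KO libraries. Col14a1, which decorates collagen fibrils, fell from 87.2 and 88.6 to 32.4 and 27.5 scaled CPM. The 1 riser, Col23a1, a transmembrane collagen, stood at 104 and 98.1 in KO and 123 and 139 in KO + H-151 (0.37 ± 0.08); with total-count scaling 3 rose and with quantile normalization 2. Without 1 library, 19 to 23 members fell. Summed over the listed genes, collagens held 40440 and 42730 scaled CPM in KO, 26570 and 25100 in KO + H-151 and 34470 and 35410 in control.

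Elastic fibre genes fell in 12 of 22 and rose in 3 (median -0.26). Eln, elastin, stood at 108 and 124 scaled CPM in KO, 18.1 and 14.8 in KO + H-151 and 52.6 and 48.1 in control (log2 change -2.75 ± 0.11, adjusted p = 2.36e-12). Loxl3, a lysyl oxidase that crosslinks collagen and elastin, stood at 362 and 342 scaled CPM in KO, 88.8 and 97.7 in KO + H-151 and 145 and 157 in control (log2 change -1.91 ± 0.07, adjusted p = 2.27e-12). Fbln2, a fibulin of elastic fibres, stood at 951 and 937 scaled CPM in KO, 472 and 552 in KO + H-151 and 946 and 1021 in control (log2 change -0.89 ± 0.08, adjusted p = 9.82e-08). Elastin and Loxl3 were highest in KO and lowest in KO + H-151, whereas Fbln2 was alike in control and KO. Lox, the most abundant crosslinking enzyme listed, stood at 1934 and 1902 in KO and 1709.8 and 2038 in KO + H-151 with overlapping libraries, a log2 change of -0.04 ± 0.08 (adjusted p = 0.748) whose sign turned with quantile normalization. With that scaling Lox passed as higher (0.233, limma adjusted p = 0.0304). The 3 that rose were Efemp1 (0.81 ± 0.09), Emilin2 (0.59 ± 0.14) and Mfap2 (0.47 ± 0.16); the last was lost without single libraries. For Mfap2 the adjusted p was 0.313 without KO replicate 1, 0.0817 without KO + H-151 replicate 1.

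**Figure D4:**
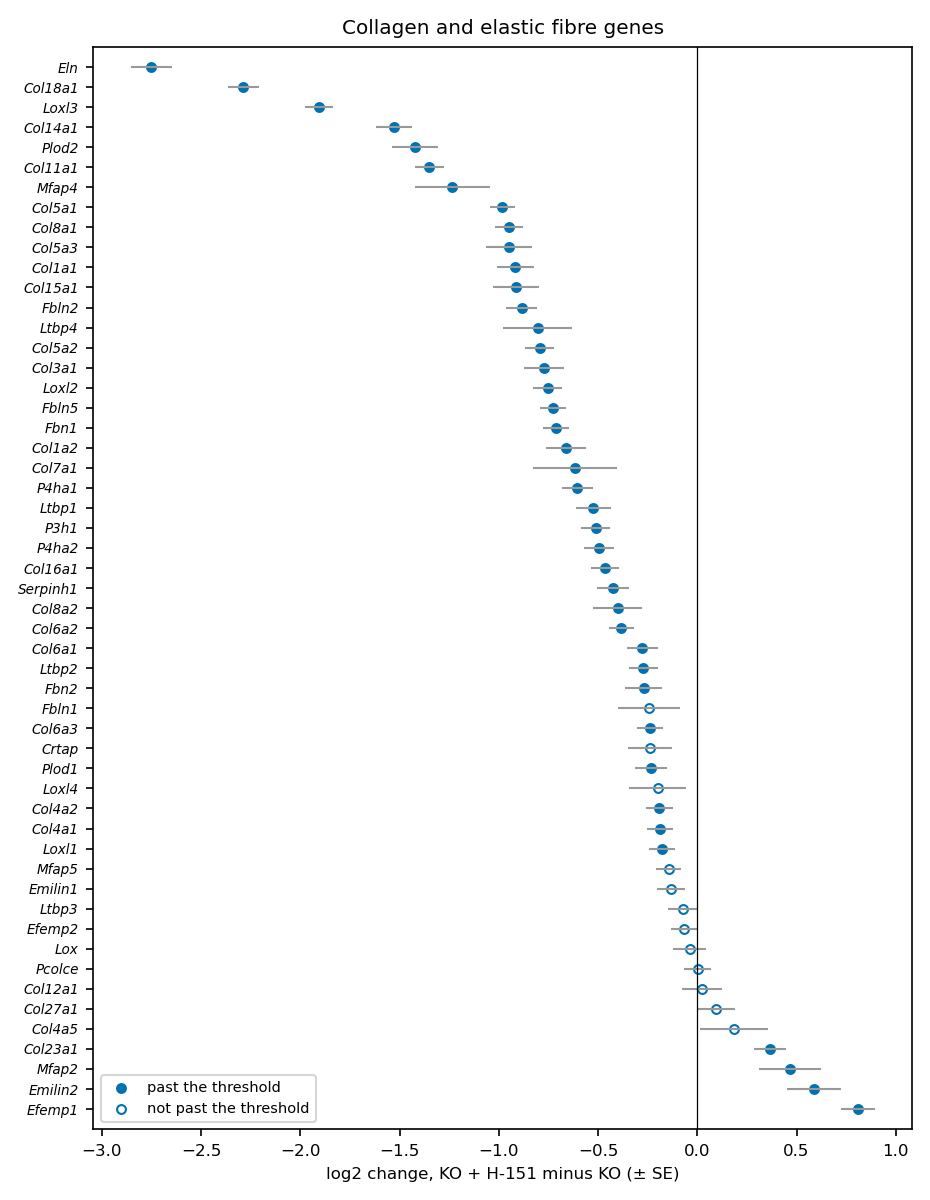
Log2 change, KO + H-151 minus KO, with its standard error (x axis) for each collagen and elastic fibre gene tested, ordered by size; filled points passed the threshold. Eln (-2.75) and Col18a1 (-2.29) lie farthest left, and Col23a1, Mfap2, Emilin2 and Efemp1 are the filled points right of 0.

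Adhesion and ground substance followed. Of 31 integrin, laminin and related adhesion genes, 16 fell and 3 rose, with a median of -0.30. Agrn, agrin, stood at 108 and 119.6 in KO, 27.8 and 19.7 in KO + H-151 and 44.0 and 40.3 in control, log2 change -2.24 ± 0.12. Itga7, a laminin-binding integrin chain, stood at 54.5 and 60.3 in KO, 11.0 and 14.4 in KO + H-151 and 17.9 and 19.7 in control, log2 change -2.10 ± 0.13. Postn, periostin, stood at 2255 and 2479 scaled CPM in KO, 1197 and 1090.5 in KO + H-151 and 1557 and 1619.7 in control (log2 change -1.05 ± 0.08, adjusted p = 9.96e-09). Fn1, fibronectin, stood at 2349 and 2513 scaled CPM in KO, 1567 and 1698 in KO + H-151 and 2118 and 2149 in control (log2 change -0.58 ± 0.07, adjusted p = 1.05e-05). In these 4 genes KO was highest and KO + H-151 lowest of the 3 groups. Of the 3 risers Nid2, nidogen, gained 0.61 ± 0.10; Thbs1, a thrombospondin, and Itga3 did not hold without single libraries. For Thbs1 the adjusted p was 0.223 without KO replicate 1, 0.12 without KO replicate 2, 0.0893 without KO + H-151 replicate 2. For Itga3 the adjusted p was 0.137 without KO replicate 1, 0.119 without KO replicate 2, 0.355 without KO + H-151 replicate 1. Leaving out either KO library left 1 riser, whereas 7 rose with quantile normalization and 8 with total-count scaling.

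Of 23 proteoglycan and hyaluronan genes, 14 fell and 5 rose (median -0.44). Has2, given above, had the smallest p. Gpc1, a heparan sulfate proteoglycan, stood at 145 and 155 in KO, 81.1 and 88.5 in KO + H-151 and 78.7 and 73.4 in control, log2 change -0.82 ± 0.08. Vcan, versican, stood at 163 and 164 in KO, 82.6 and 87.2 in KO + H-151 and 150.5 and 132 in control, log2 change -0.94 ± 0.08. Gpc1 came down to just above the control libraries and Vcan to below them. Prelp rose by 0.41 ± 0.06, and the other 4 risers, all small leucine-rich proteoglycans or a glypican, lost their call without single libraries. For Lum the adjusted p was 0.0863 without KO replicate 1. For Ogn the adjusted p was 0.175 without KO replicate 1. For Dcn the adjusted p was 0.198 without KO replicate 1, 0.166 without KO replicate 2, 0.286 without KO + H-151 replicate 1. For Gpc6 the adjusted p was 0.172 without KO replicate 1, 0.122 without KO replicate 2, 0.255 without KO + H-151 replicate 2. Bgn, biglycan, the highest of the list, stood at 3872 and 4067 in KO and 2873 and 3277 in KO + H-151 (-0.37 ± 0.08); its call was also lost, and its sign turned with quantile normalization. For Bgn the adjusted p was 0.0613 without KO replicate 2. Risers numbered 1 without KO replicate 1 and 3 without KO replicate 2, and 1 with a constant prior variance. With DESeq2 there were 3. Of 28 matrix proteases and their inhibitors, 13 fell and 8 rose; the median sign depends on the scaling. Adamts15, which cleaves versican, rose (27.2 and 30.7 in KO, 121 and 103 in KO + H-151 and 48.4 and 39.8 in control, log2 change 1.92 ± 0.11). Plat, tissue plasminogen activator, fell (108 and 104 in KO, 29.0 and 28.5 in KO + H-151 and 36.8 and 38.6 in control, log2 change -1.85 ± 0.08), and so did the collagenase Mmp13 (138 and 179 in KO, 57.0 and 51.3 in KO + H-151 and 50.9 and 48.9 in control, log2 change -1.52 ± 0.10). Timp2, a protease inhibitor, stood at 2813 and 2801 and 3096 and 3054 (adjusted p = 0.173).

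Immediate early genes, which growth factors and stress switch on within minutes, fell in 16 of 27 and rose in 5 (median -0.48). Jun, an AP-1 subunit, stood at 351 and 353 scaled CPM in KO, 144 and 147 in KO + H-151 and 154 and 159 in control (log2 change -1.27 ± 0.06, adjusted p = 8.72e-11). Junb, another subunit, stood at 129 and 124 scaled CPM in KO, 49.1 and 48.7 in KO + H-151 and 69.6 and 65.4 in control (log2 change -1.35 ± 0.08, adjusted p = 3.65e-10). Nr4a2, an orphan nuclear receptor, stood at 63.9 and 71.4 scaled CPM in KO, 18.1 and 18.6 in KO + H-151 and 20.4 and 19.0 in control (log2 change -1.83 ± 0.10, adjusted p = 4e-10). The KO + H-151 libraries of Jun and Junb lay below control, and those of Nr4a2 just under it. AP-1 members went both ways: Fosl2 rose (124 and 133 in KO, 311 and 275 in KO + H-151 and 342 and 357 in control, log2 change 1.18 ± 0.07) and Jund rose (34.4 and 23.8 in KO, 46.2 and 57.8 in KO + H-151 and 50.4 and 52.6 in control, log2 change 0.83 ± 0.14), as did Spry1, an inhibitor of receptor tyrosine kinase signalling (0.86 ± 0.18). The calls of the other 2 risers were lost without single libraries. For Btg2 the adjusted p was 0.246 without KO replicate 1, 0.203 without KO + H-151 replicate 1. For Dusp1 the adjusted p was 0.0945 without KO replicate 1, 0.164 without KO replicate 2, 0.369 without KO + H-151 replicate 1. Risers numbered 3 without KO replicate 1, without KO + H-151 replicate 1 or with a constant prior variance, and 9 members fell when only genes with a mean of at least 10 were tested.

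Of 16 Krüppel-like and SP factors, 6 fell and 5 rose. Klf6 stood at 825 and 804 in KO, 371 and 355 in KO + H-151 and 440.4 and 475 in control, log2 change -1.16 ± 0.07. Klf8 stood at 13.0 and 12.3 in KO, 0.588 and 1.25 in KO + H-151 and 1.57 and 0.865 in control, log2 change -2.85 ± 0.23. Both, with Klf4 above, were high in the KO libraries alone. Klf3, a repressor, rose (167 and 140.3 in KO, 249.6 and 258 in KO + H-151 and 272 and 304 in control, log2 change 0.72 ± 0.08), and Klf15, a factor of fat and muscle metabolism, rose from low levels (2.61 and 1.87 in KO, 8.62 and 6.44 in KO + H-151 and 5.06 and 4.40 in control, log2 change 1.39 ± 0.20). Klf16, Klf5 and Sp3 were past the threshold as higher with all libraries but not without single ones. For Klf16 the adjusted p was 0.181 without KO replicate 2, 0.0892 without KO + H-151 replicate 2. For Klf5 the adjusted p was 0.0854 without KO replicate 2, 0.0533 without KO + H-151 replicate 2. For Sp3 the adjusted p was 0.0976 without KO replicate 1. Without KO replicate 2, or with a constant prior variance, 3 members rose, against 8 with quantile normalization and 9 with total-count scaling.

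NF-kB targets and secreted inflammatory genes fell in 23 of 32 and rose in 2 (median -0.98). Without the 7 members that are also interferon-related, 16 of 25 fell, with a median of -0.815. Ccl2 and Ccl7, given next, are among those 7. Ccl2, a monocyte chemokine, stood at 1830.2 and 1684 scaled CPM in KO, 73.8 and 47.3 in KO + H-151 and 102 and 101 in control (log2 change -4.87 ± 0.13, adjusted p = 2.34e-14). Ccl7, a related chemokine, stood at 1799 and 1751 scaled CPM in KO, 155 and 108 in KO + H-151 and 206 and 216 in control (log2 change -3.77 ± 0.11, adjusted p = 8.04e-14). Tnfaip6, which binds hyaluronan, stood at 134 and 144 scaled CPM in KO, 20.97 and 23.6 in KO + H-151 and 35.6 and 30.3 in control (log2 change -2.59 ± 0.10, adjusted p = 2.18e-12). All 3 fell below both control libraries. Against this direction, Cxcl12, a chemokine that stromal cells make constitutively, rose (1619 and 1776 in KO, 3309.98 and 2830.01 in KO + H-151 and 2629.9 and 2567 in control, log2 change 0.85 ± 0.09), as did Cxcl5, given above. Without KO + H-151 replicate 2, 4 members rose.

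Other signalling lists were mixed. Of 28 TGF-beta and BMP response genes 13 fell and 8 rose, and 8 fell with quantile or total-count scaling. Bambi, a decoy receptor, stood at 93.5 and 71.0 in KO, 6.27 and 6.19 in KO + H-151 and 5.55 and 6.12 in control, log2 change -3.51 ± 0.14. Tgfbi, a secreted adhesion protein, stood at 136 and 154 in KO, 44.4 and 39.5 in KO + H-151 and 53.2 and 49.7 in control, log2 change -1.77 ± 0.09. Id2, an inhibitor of helix-loop-helix factors, rose above both of the other groups (119 and 113 in KO, 275 and 293 in KO + H-151 and 170.3 and 157 in control, log2 change 1.28 ± 0.07). Of 25 Wnt pathway genes 10 fell and 5 rose: Rspo2, given above, Tcf7l2, a Wnt effector (0.62 ± 0.07), Apcdd1, a Wnt inhibitor (1.497 ± 0.21), Dkk2, another (1.39 ± 0.16), and the receptor Ror2, whose call was lost without any 1 of the 4 libraries. For Ror2 the adjusted p was 0.0689 without KO replicate 1, 0.216 without KO replicate 2, 0.0942 without KO + H-151 replicate 1, 0.109 without KO + H-151 replicate 2. With total-count scaling 8 Wnt genes rose. Dkk3, the highest of the list, did not pass (331 and 332 in KO, 324 and 326 in KO + H-151 and 264 and 253 in control, log2 change -0.03 ± 0.06), and its sign turned with quantile normalization. With that scaling Dkk3 passed as higher (0.237, limma adjusted p = 0.00663).

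Of 27 known YAP/TAZ target genes, 14 fell and 5 rose in KO + H-151 against KO (median -0.34). Ccn2, a matricellular protein, stood at 1077 and 876 scaled CPM in KO, 360.1 and 547 in KO + H-151 and 1109.9 and 1135 in control (log2 change -1.13 ± 0.14, adjusted p = 4.59e-06). Axl, a receptor tyrosine kinase, stood at 449.7 and 447 scaled CPM in KO, 194 and 208 in KO + H-151 and 265 and 277 in control (log2 change -1.16 ± 0.07, adjusted p = 3.83e-10). Both were lowest in KO + H-151. Gadd45b fell from 69.2 and 77.2 to 26.1 and 27.1 scaled CPM and Igfbp3 from 36.0 and 41.6 to 7.64 and 5.50. The risers were Asap1 (0.67 ± 0.06), Arhgef17 (0.53 ± 0.08), Ajuba (0.92 ± 0.13) and Amotl2, an inhibitor of YAP (0.35 ± 0.07), with Nuak2, whose call was lost. For Nuak2 the adjusted p was 0.0681 without KO replicate 2. Amotl2 stayed under control: it stood at 97.5 and 98.9 in KO, 126 and 125 in KO + H-151 and 249 and 253 in control.

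NRF2 is the transcription factor that answers electrophiles and oxidants by raising antioxidant enzymes. Of 37 NRF2-linked genes 27 rose and 3 fell, with a median of 0.44; KO against control had a median of -0.12 for the same list. Gstm1, a glutathione transferase, stood at 85.8 and 84.1 scaled CPM in KO, 206 and 195 in KO + H-151 and 93.6 and 94.1 in control (log2 change 1.23 ± 0.07, adjusted p = 3.51e-10). Nqo1, a quinone reductase, stood at 13.3 and 11.1 scaled CPM in KO, 29.7 and 28.5 in KO + H-151 and 14.3 and 12.8 in control (log2 change 1.19 ± 0.13, adjusted p = 1.52e-06). Fth1, the ferritin heavy chain, stood at 2278 and 2265 scaled CPM in KO, 4232 and 4273 in KO + H-151 and 2484 and 2509.8 in control (log2 change 0.90 ± 0.07, adjusted p = 4.12e-08). Blvrb, biliverdin reductase B, stood at 59.5 and 51.9 scaled CPM in KO, 122 and 123 in KO + H-151 and 64.6 and 64.5 in control (log2 change 1.13 ± 0.08, adjusted p = 8.44e-09). In all 4 genes both KO + H-151 libraries were above every other library, and control and KO lay close to each other. Hmox1, heme oxygenase, did not pass the threshold: its KO libraries stood at 115 and 100.1 and its KO + H-151 libraries at 109 and 157, with overlap (0.29 ± 0.12, adjusted p = 0.0707). The 3 that fell were Slc7a11, the cystine importer (15.7 and 13.1 in KO, 2.68 and 2.88 in KO + H-151 and 5.13 and 6.05 in control, log2 change -2.02 ± 0.17), Ugdh (-0.50 ± 0.07) and Txn1, thioredoxin (-0.32 ± 0.06). Without 1 library, 20 to 26 members rose.

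Sterol synthesis genes, which SREBP2 raises when membrane cholesterol is low, rose in 17 of 25 and fell in 1 (median 0.43). For the same list, KO against control had a median of 0.333. Hmgcs1, which makes the precursor of mevalonate, stood at 360.5 and 326 scaled CPM in KO, 533 and 580.2 in KO + H-151 and 263 and 329 in control (log2 change 0.70 ± 0.09, adjusted p = 1.14e-05). Sqle, squalene epoxidase, stood at 76.1 and 73.8 scaled CPM in KO, 107 and 123 in KO + H-151 and 69.5 and 74.8 in control (log2 change 0.61 ± 0.08, adjusted p = 1.53e-05). Hsd17b7 stood at 72.4 and 64.3 scaled CPM in KO, 105 and 125 in KO + H-151 and 62.2 and 67.4 in control (log2 change 0.74 ± 0.09, adjusted p = 6.59e-06). These 3 were higher in KO + H-151 than in all other libraries. No riser of the list reached a 2-fold change, and the 1 that fell did. The count of risers was 10 without KO replicate 2 and 11 with a constant prior variance. Fatty acid synthesis genes rose in 9 of 17 (median 0.294), and their median in KO against control was 0.385. Fasn, fatty acid synthase, stood at 121 and 129 in KO, 179 and 174 in KO + H-151 and 101 and 106 in control, log2 change 0.50 ± 0.07. Scd1, a desaturase, stood at 292 and 298 in KO, 457 and 456 in KO + H-151 and 177 and 189 in control, log2 change 0.63 ± 0.06. Thrsp, a regulator of lipid synthesis, rose from under 1 scaled CPM (0.871 and 0.681 in KO, 5.81 and 3.63 in KO + H-151 and 0.498 and 0.216 in control, log2 change 1.66 ± 0.24), and Scd2 did not pass (0.29 ± 0.12, adjusted p = 0.0517). Fatty acid oxidation genes rose in 7 of 19; Acadm (0.68 ± 0.10) and Cpt2 (0.57 ± 0.10) were among them, and Hadha did not pass (0.14 ± 0.07, adjusted p = 0.114). With total-count scaling 11 of them rose.

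Lysosome genes rose in 17 of 40 and fell in 2 (median 0.12); with quantile normalization 31 rose and with total-count scaling 27, and none fell with either. Ctsd, an aspartic protease, stood at 1829.7 and 1831 scaled CPM in KO, 2921 and 2742 in KO + H-151 and 1645 and 1542 in control (log2 change 0.63 ± 0.07, adjusted p = 3.06e-06). Gpnmb, a lysosomal glycoprotein also made by macrophages, stood at 712 and 660.4 scaled CPM in KO, 1201 and 1428 in KO + H-151 and 601 and 596 in control (log2 change 0.93 ± 0.08, adjusted p = 7.48e-08). Atp6v0d2, a proton pump subunit best known from osteoclasts and macrophages, stood at 23.8 and 22.1 scaled CPM in KO, 52.4 and 49.9 in KO + H-151 and 19.9 and 18.2 in control (log2 change 1.13 ± 0.10, adjusted p = 1.92e-07). The 3 genes were higher in KO + H-151 than in all other libraries, and both KO libraries lay above both control libraries. For the whole list, the median log2 change of KO against control was 0.186. Ctsh, a cysteine protease, fell, and its call was lost without 1 library. For Ctsh the adjusted p was 0.0858 without KO replicate 2. Cd63, the highest of the list, did not pass (-0.09 ± 0.08, adjusted p = 0.381).

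Promoter sequence was searched for the DNA elements these pathways are known by, in the 250 bases before each RefSeq start on GRCm38.p6, on both strands; 10267 of 13648 tested genes had at least 1 window. The elements were the antioxidant element TGACNNNGC, the sterol element TCACNCCAC, the interferon element (a pair of GAAA runs with 2 free bases between them) and the E-box CACGTG, which the lysosomal regulator TFEB binds. The interferon element was in 26% of windows of interferon-related genes that fell, beside 2.68% of windows of all tested genes and 15% of 40 windows of ribosomal protein genes that fell. The antioxidant element was in 25% of 32 windows of NRF2-list risers and in 26.3% of 19 windows of lysosome risers, beside 11.5% of all; in 47 of 1520 windows of tested genes it held the AP-1 motif (TGACTCA or TGAGTCA) as well. The E-box was in 36.8% of 19 windows of lysosome risers and 30.8% of 13 windows of sterol synthesis risers beside 8.33%. The sterol element was in 1 of 13 windows of sterol synthesis risers beside 0.972% of all. These shares are descriptions of letters, without a test, and a match is not a bound site. Below, 1 promoter stretch per element shows the match in capitals (5′ to 3′ on the gene's strand), for genes of these lists; Gclm and Lgmn were chosen for their sequence, after their values were seen.
Gclm (chr3:122245413-122245556, strand +), antioxidant element: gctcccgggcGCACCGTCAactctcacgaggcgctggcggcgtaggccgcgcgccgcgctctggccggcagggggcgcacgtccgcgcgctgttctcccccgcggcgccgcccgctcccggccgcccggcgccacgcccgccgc
Hmgcs1 (chr13:119690204-119690350, strand +), sterol element: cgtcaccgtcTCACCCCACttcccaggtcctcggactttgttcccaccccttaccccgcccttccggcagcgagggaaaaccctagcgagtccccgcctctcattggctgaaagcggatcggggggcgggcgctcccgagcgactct
Lgmn (chr12:102439093-102439212, strand -), E-box: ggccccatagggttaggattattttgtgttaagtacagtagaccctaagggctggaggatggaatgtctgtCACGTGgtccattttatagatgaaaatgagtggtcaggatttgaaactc
Isg15 (chr4:156200819-156200938, strand -), interferon element: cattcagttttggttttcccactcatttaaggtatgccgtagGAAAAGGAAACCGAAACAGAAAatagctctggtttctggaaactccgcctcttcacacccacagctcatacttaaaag

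Gclm, the regulatory subunit of the enzyme that starts glutathione synthesis, has its element 134 bases before the start, and stood at 63.7 and 47.1 scaled CPM in KO, 85.3 and 104 in KO + H-151 and 67.6 and 71.3 in control (log2 change 0.77 ± 0.12, adjusted p = 6.77e-05). Lgmn, the lysosomal protease legumain, has its E-box 49 bases before a RefSeq start that lies inside the gene as GENCODE draws it (5′ end at 102439813, minus strand). It stood at 69.7 and 63.3 scaled CPM in KO, 96.1 and 79.3 in KO + H-151 and 59.0 and 62.8 in control (log2 change 0.39 ± 0.09, adjusted p = 0.00316); its call was lost without 1 library. For Lgmn the adjusted p was 0.0708 without KO replicate 2. Hmgcs1, described above, has its sterol element 137 bases before the start. Isg15 has 3 overlapping interferon elements, and fell by far the most of the 4 (-7.57), whereas the other 3 genes rose without overlap between KO and KO + H-151.

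Markers of other cell types moved as well. Of 26 macrophage markers tested, 23 rose and 1 fell (median 1.15), and their summed level was 1927 and 1911 scaled CPM in KO, 4767 and 3918 in KO + H-151 and 1795 and 1547 in control. Tyrobp, a signalling adaptor of myeloid cells, stood at 43.8 and 41.5 scaled CPM in KO, 117 and 111 in KO + H-151 and 39.9 and 38.0 in control (log2 change 1.40 ± 0.08, adjusted p = 6.34e-10). Csf1r, the receptor for macrophage growth factor, stood at 24.6 and 25.5 scaled CPM in KO, 76.5 and 72.9 in KO + H-151 and 35.9 and 33.7 in control (log2 change 1.54 ± 0.09, adjusted p = 5.94e-10). Trem2, a lipid-sensing receptor, stood at 20.5 and 18.1 scaled CPM in KO, 63.0 and 59.3 in KO + H-151 and 18.3 and 19.9 in control (log2 change 1.62 ± 0.11, adjusted p = 2.73e-09). These markers were present in every library, control included, and both KO + H-151 libraries were the highest. The exception, Fcgr1, an Fc receptor that interferon is known to raise, stood at 2.70 and 2.73 in KO, 0.588 and 0.563 in KO + H-151 and 0.498 and 0.432 in control, log2 change -1.24 ± 0.21. Cd163 and Cx3cr1 of this list were not analysed here. Without 1 library, 22 to 24 markers rose.

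Adipocyte genes rose in 16 of 18 (median 1.46; 16 rose whichever library was left out). Cebpa, a master regulator of fat cell formation, stood at 26.0 and 25.6 scaled CPM in KO, 75.1 and 82.4 in KO + H-151 and 46.8 and 42.2 in control (log2 change 1.57 ± 0.09, adjusted p = 5.82e-10), and Cd36, G0s2, Lpl, Fabp4 and Plin1 are given above. Their summed level was 1626 and 1797 in KO, 5272 and 4040 in KO + H-151 and 2080 and 1799 in control; Lep and Retn were not analysed here. KO + H-151 replicate 1 was above replicate 2 in both the adipocyte and the macrophage sums, as it was in Lyz2, Lpl and Fabp4. In bulk RNA a change in the number of cells of a type and a change in RNA per cell cannot be told apart. Macrophages also express Lpl, Cd36, Fabp4, Lyz2, Gpnmb, Atp6v0d2 and several lysosome genes. Lyz2 gave most of the macrophage sum, and Lpl and Fabp4 gave most of the adipocyte sum. The sums are therefore not separate from these genes. The part of macrophages in these results was not tested.

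Some Schwann cell markers fell. Of 12 Schwann cell and melanocyte markers tested 5 fell and 2 rose (median -0.05), and the summed level was 408 and 449 in KO, 129.6 and 106 in KO + H-151 and 154 and 144 in control. Ngfr, the low affinity neurotrophin receptor, stood at 188 and 210.02 scaled CPM in KO, 15.9 and 14.8 in KO + H-151 and 51.6 and 50.01 in control (log2 change -3.61 ± 0.09, adjusted p = 5.93e-15), and gave most of the fall of the sum. Sox10, the transcription factor of neural crest glia, stood at 42.3 and 47.9 scaled CPM in KO, 3.46 and 2.94 in KO + H-151 and 15.2 and 10.8 in control (log2 change -3.46 ± 0.16, adjusted p = 3.32e-11). Both were highest in KO and lowest in KO + H-151, as were Cdh19 (25.4 and 30.1 in KO, 3.07 and 1.13 in KO + H-151 and 6.69 and 7.57 in control, log2 change -3.28 ± 0.23) and, between KO and KO + H-151, Egr2 (-1.37 ± 0.21). Gap43 and Tfap2b, above, are also known from Schwann cells or the neural crest, and moved with these markers; the part of such cells in their fall was not tested. The 2 risers, Mbp (1.48 and 1.36 in KO, 5.62 and 5.88 in KO + H-151 and 3.06 and 2.16 in control, log2 change 1.48 ± 0.20) and the melanocyte gene Dct, were low, and the call of Dct was lost. For Dct the adjusted p was 0.0876 without KO replicate 2. Tyr and Tyrp1 were not analysed here.

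**Figure D5:**
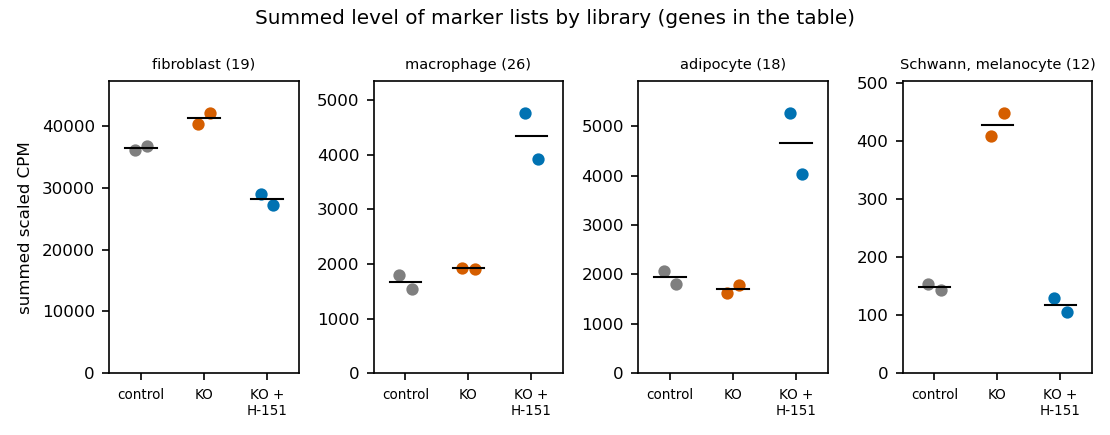
Summed scaled CPM (y axes, linear from 0) of fibroblast, macrophage, adipocyte, and Schwann and melanocyte marker lists, with the number of genes in the table, in each library (points; the line is the mean of 2). Macrophage and adipocyte sums are highest in the KO + H-151 libraries, Schwann and melanocyte sums in the KO libraries, and fibroblast sums are lowest in the KO + H-151 libraries. Lyz2 gives most of the macrophage sum, and Lpl and Fabp4 give most of the adipocyte sum.

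Fibroblast markers themselves were 9 lower and 6 higher of 19, and their sum, which includes collagens, was 40330 and 42130 in KO, 28970 and 27280 in KO + H-151 and 36060 and 36700 in control. Of 11 endothelial markers 5 rose and 3 fell (median 0.41), while their sum lay between 77.0 and 85.85 scaled CPM in every library. The keratinocyte, muscle, and lymphoid and mast cell lists had only 4 of 14, 4 of 12 and 2 of 14 genes in the table, at sums of 20.0 to 29.5, 18.4 to 26.3 and 3.57 to 10.8.

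Genes of growth and stress fell in small steps. Ribosomal protein genes fell in 44 of 50, with a median of -0.35. Rps16 stood at 195 and 209.8 scaled CPM in KO, 129 and 134 in KO + H-151 and 206 and 181 in control (log2 change -0.62 ± 0.08, adjusted p = 5e-06). Rps13 stood at 410.01 and 401 in KO, 289 and 298 in KO + H-151 and 379 and 348 in control, log2 change -0.46 ± 0.07. Rpl12 stood at 287 and 311 in KO, 215 and 217 in KO + H-151 and 289 and 265 in control, log2 change -0.46 ± 0.07. In these 3 genes the KO + H-151 libraries were the lowest of the 6. The count was 28 without KO replicate 2, 29 with a constant prior variance, 22 with total-count scaling and 17 with quantile normalization. Rplp1, the highest of the list, lost its call without single libraries and turned in sign with quantile normalization. For Rplp1 the adjusted p was 0.183 without KO replicate 2, 0.0515 without KO + H-151 replicate 1. The share of reads from mitochondrial genes, 4.98% and 4.41% in KO, was 7.04% and 7.29% in KO + H-151 and 5.02% and 5.28% in control; its part in the small falls of abundant genes was not tested.

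Integrated stress response genes, which the factor ATF4 drives when amino acids are short or proteins misfold, fell in 18 of 26 and rose in 3 (median -0.59). Atf4 itself stood at 497 and 489 scaled CPM in KO, 376 and 402 in KO + H-151 and 465 and 459 in control (log2 change -0.34 ± 0.06, adjusted p = 0.000408). Slc3a2, a subunit of amino acid transporters, stood at 446 and 445 scaled CPM in KO, 262 and 258 in KO + H-151 and 297 and 293 in control (log2 change -0.78 ± 0.06, adjusted p = 3.06e-08), and its partner Slc7a11 is given above. Both transporter genes were highest in KO. Ddit4, an inhibitor of the growth kinase mTOR, rose to near the control level (30.2 and 27.1 in KO, 74.7 and 74.8 in KO + H-151 and 75.9 and 79.8 in control, log2 change 1.36 ± 0.08), and Slc1a5, a glutamine transporter, rose (0.52 ± 0.08). Sesn2 was the other riser and lost its call. For Sesn2 the adjusted p was 0.0558 without KO replicate 1, 0.161 without KO replicate 2, 0.264 without KO + H-151 replicate 2. Without 1 library, 18 to 19 members fell.

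Hypoxia and glycolysis genes fell in 15 of 27 and rose in 2 (median -0.27). Hk2, the inducible hexokinase, stood at 112 and 125 scaled CPM in KO, 42.7 and 42.5 in KO + H-151 and 66.5 and 73.1 in control (log2 change -1.45 ± 0.08, adjusted p = 4.29e-10). P4ha1, a prolyl hydroxylase needed for collagen, stood at 217 and 214 scaled CPM in KO, 133 and 150.4 in KO + H-151 and 190.1 and 216 in control (log2 change -0.61 ± 0.08, adjusted p = 1.01e-05). Adm, adrenomedullin, rose (35.7 and 35.4 in KO, 117 and 101 in KO + H-151 and 186 and 159 in control, log2 change 1.58 ± 0.09), as did Ndrg1 (119.6 and 116 in KO, 150.1 and 155 in KO + H-151 and 168 and 165 in control, log2 change 0.37 ± 0.07). Hk2 and P4ha1 were lowest in KO + H-151, while Adm and Ndrg1 were lowest in KO. The count that fell was 9 without KO replicate 2 or without KO + H-151 replicate 1, 9 with quantile or total-count scaling, and 8 with a constant prior variance. Aldoa, an abundant glycolytic enzyme, lost its call without single libraries, and its sign turned with quantile normalization. For Aldoa the adjusted p was 0.148 without KO replicate 1, 0.0782 without KO replicate 2, 0.081 without KO + H-151 replicate 1.

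Mitosis genes fell in 16 of 34 (median -0.35). Cenpe, a kinetochore motor, stood at 133 and 115 scaled CPM in KO, 43.1 and 54.4 in KO + H-151 and 75.0 and 79.3 in control (log2 change -1.33 ± 0.10, adjusted p = 2e-08). Cdk1, the mitotic kinase, stood at 74.0 and 76.1 in KO, 47.3 and 50.3 in KO + H-151 and 82.2 and 87.4 in control, log2 change -0.61 ± 0.08. Prc1, of the central spindle, stood at 78.0 and 69.8 in KO, 43.8 and 54.7 in KO + H-151 and 92.9 and 92.1 in control, log2 change -0.58 ± 0.10. Top2a, the highest of the list, did not pass (132 and 108 in KO, 85.3 and 117 in KO + H-151 and 144 and 169 in control, log2 change -0.25 ± 0.12, adjusted p = 0.114), and its KO + H-151 replicate 2 lay within the KO range. The count was 8 without KO replicate 1 or without KO + H-151 replicate 1, and 25 without KO + H-151 replicate 2. It was also 8 with total-count scaling and 8 with a constant prior variance.

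Cyp1b1, an oxidase that the aryl hydrocarbon receptor induces, stood at 245 and 268 in KO, 300.4 and 307 in KO + H-151 and 337 and 336 in control, log2 change 0.24 ± 0.07, and its call was lost without 1 library. For Cyp1b1 the adjusted p was 0.126 without KO replicate 1.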

How the data were processed

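RNA of 6 libraries, 2 each of control, KO and KO + H-151 fibroblasts, was measured by QuantSeq 3' mRNA sequencing, per the labels' protocols. The submitters' processing notes name the aligner STAR (2.5.3a), featureCounts, edgeR and mm10; the gene annotation, strand setting and any filter are not given in the sources used here, so overlapping genes may share reads. The authors deposited 1 signal value per gene and library: CPM computed with an effective library size, called scaled CPM here, whose columns summed to between 955838 and 1083568. The plan had assumed plain CPM; the same log2 test was kept. In each column 100% of values were whole multiples of 1 read's worth (tolerance 0.0006), which gave back whole reads for edgeR and DESeq2.

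Genes that reached 1 scaled CPM in 2 or more libraries were transformed to log2(value + 1) and fitted with limma 3.58.1 (R 4.3.3), 1 mean per group over all 6 libraries, with a mean-dependent prior variance (3 residual degrees of freedom, 15.7 after moderation) and Benjamini-Hochberg adjustment over all genes tested, at 0.05. The steps were tested on simulated data. Intervals and floors cover counting error only.

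Interferon-related genes were a list plus symbol patterns, 279 genes. Named genes were the 12 largest rises and falls outside it (past the threshold, groups not overlapping, higher mean at least 5, no unnamed gene models, pseudogenes or mt- genes), the 8 largest each with control within 0.25 of KO on the log2 scale, the 6 largest each with a mean of at least 200, for each list described the 3 smallest p-values and the highest mean (all members of a direction with 5 or fewer), and a few pathway genes; some of these genes are not reported here. The members, lists and tests were chosen with earlier results of these data known. No set test was run. Promoters are RefSeq's on GRCm38.p6, and gene positions are GENCODE's on GRCm38.

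Alternatives were other pseudocounts, filters and scalings, edgeR 4.0.16, DESeq2 1.42.0, a replicate block and leaving out each library. Same-numbered replicates did not deviate together in all pairs of groups (correlations of -0.0676, 0.154 and -0.128), so numbers were not taken to pair libraries.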

Additional observations from a re-analysis of the deposited data

How the results depend on the processing

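The counts past the threshold, 2643 higher and 2923 lower of all genes and 2636 and 2672 outside the interferon list, stayed within 1.5 times under both pseudocounts, no filter, median scaling, fewer libraries in the model, a constant prior variance and edgeR (2614 and 2899). A filter on a mean of 10, which tests fewer genes, gave 1676 higher (1670 outside the list), and total-count scaling 4770 higher and 1930 lower (4758 and 1686), against 3546 and 2179 with quantile normalization; the cause was not tested. DESeq2 called 1813 and 2519. Asking for at least a 2-fold change left 429 and 867 (427 and 653). Leaving out 1 library gave 1776 to 2270 higher and 2200 to 2746 lower (1769 to 2264 and 1959 to 2497). Replicate numbers were not taken to pair libraries; a replicate block gave 2599 higher and 2864 lower (2592 and 2613). Pairing the numbers crosswise, an alternative chosen after seeing the data, called 2516 and 2812 (2509 and 2562). The sign turned with quantile normalization for Aldoa (0.047), Bgn (0.051), Dkk3 (0.237), Lox (0.233) and Rplp1 (0.026). Of these, Dkk3 and Lox passed the threshold as higher with that scaling. The cause was not tested. Of 171 named genes past the threshold, 148 kept their call whichever library was left out, and 146 did so under every alternative above that tested them, other than the 2-fold one; the filter on a mean of 10 tested 149 of the 171. With 12444986 to 15308100 reads and 2 libraries a group, changes of genes with few reads may not be detectable.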

Other observations

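Zinc finger genes, chosen after their values were seen, leaned towards higher levels in KO + H-151. Of 328 tested genes with symbols starting Zfp, most of them coding for DNA-binding proteins and many for KRAB repressors, 126 (38.4%) were higher and 26 (7.93%) lower in KO + H-151 than in KO by limma with adjusted p under 0.05, beside 19.4% and 21.4% of all genes tested. Their median log2 change was 0.342, and the median of the same genes in KO against control, which shares the KO libraries, was -0.247. The median was 0.335 with median scaling and 0.492 with total-count scaling. On recovered reads edgeR called 124 of them higher and 26 lower, and DESeq2 81 and 21. Zfp703, described in the report, is one of them.

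Of 17 tested genes with symbols starting mt-, transcribed in mitochondria or named for them, 9 (52.9%) were higher and 0 lower in KO + H-151 than in KO. Of all genes tested, 19.4% were higher and 21.4% lower. The median log2 change of the 17 was 0.394. Here edgeR called 8 of them higher, DESeq2 5 and limma with total-count scaling 12. Of all 13648 genes, the same methods called 2614, 1813 and 4770 higher. The median of KO + H-151 against control was 0.423 and that of KO against control 0.071. The counts and medians of both families are descriptions without a test of the family.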
